A study of Bos taurus with 32 samples.

Results

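Genes of uterine milk and other histotroph proteins were examined in the bovine endometrium of repeat breeder (RB) and non-RB cows. The members were the probes named for osteopontin (SPP1), lactotransferrin (LTF), retinol binding protein 4 (RBP4), trophoblast Kunitz domain protein 1 (TKDP1), gastrin-releasing peptide (GRP) or uterine milk protein (UTMP, SERPINA14), together with those whose description held uterine milk protein, osteopontin, uteroferrin or retinol binding protein 4. This gave 7 probes, for 6 genes, of 15208 probes without controls on the array. SERPINA14 was found only through its description, under the name LOC286871, and no probe was described as uteroferrin. Tissue came from 4 RB and 4 non-RB cows, all non-lactating Japanese Black cows slaughtered 15 days after estrus. RB cows had failed to conceive after repeated inseminations although uterus and ovaries appeared healthy, whereas non-RB cows were normally fertile cows. By the study's definition RB cows showed estrus, though their cycles were not always normal. The non-RB cows had become pregnant earlier in the study, had been aborted with a prostaglandin and had cycled normally again before slaughter, a history described for that group only. The caruncles (CAR), where the placenta attaches and which have no glands, and the intercaruncular endometrium (ICAR), which holds the uterine glands, were taken from both horns, the ipsilateral one on the side of the corpus luteum and the contralateral one on the other. Each of these 4 compartments had 4 RB and 4 non-RB arrays, 32 in all.

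Histotroph is the mixture of proteins, lipids, sugars and ions that uterine epithelia secrete into the lumen, and in ruminants the conceptus lives on it for weeks before the placenta attaches. Progesterone from the corpus luteum drives the glands towards this secretion. Uterine milk proteins are serpins made by the glands. RBP4 carries retinol. LTF binds iron and has antibacterial activity. Osteopontin is a ligand of integrins at the surface of luminal epithelium and conceptus. GRP is a peptide that stimulates secretion and growth in many tissues, and TKDP1 is a Kunitz-type protein of the trophoblast.

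Each probe is named from the array files, and the probe sequences were not aligned to any transcript. The uterine milk serpin is given whole because it was assigned through its description, and for the other genes the opening 30 bases of the probe of 60 bases are given, 5′ to 3′ as in the array files, with no part in capitals. The 2 LTF probes had the same 60 bases, so that they repeat a single measurement on each array and are not independent evidence.
SERPINA14: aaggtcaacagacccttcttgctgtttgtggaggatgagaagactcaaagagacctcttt
TKDP1: acatccctcatgaccagagtaactgcagag
RBP4: ggaatcatttgaggcttaggattccagact
LTF: ctctcccttcctgaagtcggatttttgcca
SPP1: actaaaagcttcagagtttagtctatgttc
GRP: tttgtgcaaaatactcaactatgaccttgt

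All levels below are the log2 of a spot's processed intensity minus the log2 of its array's 75th percentile, so that 0 is that percentile and 1 unit is a doubling. Levels are compared between arrays for the same probe and never between probes. The arrays were hybridized on 8 slides, of which only slides 6 and 8 held both RB and non-RB arrays. In CAR of the ipsilateral horn no slide held both groups, so that a group difference there cannot be told apart from the slide. Slide 1 held only the CAR of the contralateral horn of non-RB replicate 2 and the ICAR of the contralateral horn of non-RB replicate 1, and values without these arrays are given where they matter. The region labels were checked with 11 epithelial markers, which were higher in ICAR than in CAR of the same number and horn, by the median, in 13 of 16 pairs. In the contralateral horn of RB replicate 3 the direction was the opposite, with a median of -1.08 and 0 of 11 markers above 0, while 7 of 7 stromal markers were higher in the library labelled ICAR, by a median of 1.21. Non-RB replicate 2 gave medians of -0.34 in the ipsilateral and -0.06 in the contralateral horn. These libraries were kept under their labels, and results that rest on them are also given without them. The labels do not say that arrays with the same replicate number come from the same cow, and p-values and intervals over 32 arrays treat the arrays as separate samples.

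**Figure D1:**
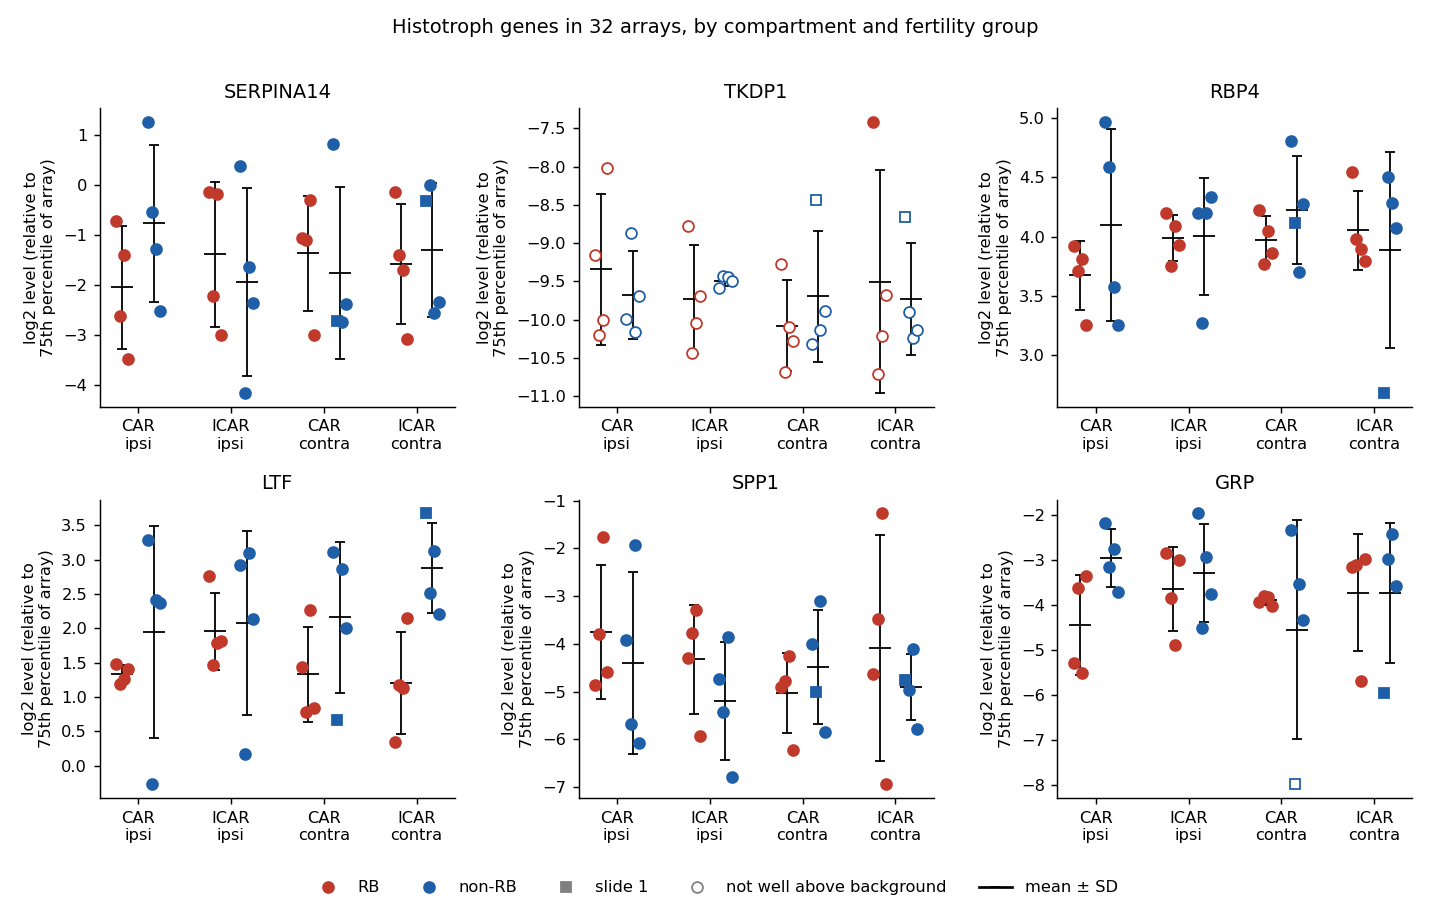
Log2 level of each of the 6 genes (y axis, relative to its array's 75th percentile) in RB (red) and non-RB (blue) arrays of the 4 compartments (x axis), with the mean ± SD of 4 arrays; squares are arrays of slide 1 and open symbols are spots not well above background. TKDP1 was well above background on 1 of 32 arrays, and RB and non-RB levels overlapped in all panels except LTF in ICAR of the contralateral horn.

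RBP4, SPP1, SERPINA14 and both LTF probes were well above background on 32 of 32 arrays, GRP on 31 and TKDP1 on 1. No member differed between ICAR and CAR or between RB and non-RB cows at an adjusted p under 0.05. For SPP1, SERPINA14 and LTF, more of the variance lay between the numbers than within them. The strongest single RB differences were a lower LTF in ICAR of the contralateral horn and a lower GRP in CAR of the ipsilateral horn, neither of which passed the adjustment. In bulk tissue, fewer cells of a type and less RNA per cell cannot be told apart.

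ICAR was compared with CAR over 32 arrays, with fertility group and horn in the model. By limma with Benjamini-Hochberg adjustment, 174 of 12919 probes were called, or 1.35% of those tested, 124 higher and 50 lower in ICAR. Of the 6 member probes tested 0 were called, and 0 had an unadjusted p under 0.05. The fitted differences were -0.07 for SERPINA14 (SE 0.47, 95% interval -1.04 to 0.90) and -0.01 for RBP4 (SE 0.17, interval -0.36 to 0.34). They were 0.34 for LTF (SE 0.31, interval -0.30 to 0.98), -0.21 for SPP1 (SE 0.47, interval -1.16 to 0.75) and 0.36 for GRP (SE 0.43, interval -0.52 to 1.24). With the arrays taken as separate samples, the interval of RBP4 reached at most 0.36 in either direction. Those of SERPINA14, SPP1 and GRP spanned more than a doubling on at least 1 side. Taken per replicate number, the 8 differences of RBP4 had a mean of -0.01 and an SD of 0.66, so that this interval is not a bound across numbers. In RB cows and non-RB cows, and in the ipsilateral and contralateral horns taken apart, 0% of all probes were called, and 0 members had an unadjusted p under 0.05. Between the ipsilateral and contralateral horns 0% were called as well, and member differences lay between -0.09 for RBP4 and 0.40 for GRP. Without the contralateral pair of RB replicate 3, 9.97% of probes were called, and without that pair, non-RB replicate 2 and slide 1, 16.1%. These pairs were left out because their markers ran against the region contrast, so that a rise in calls is built into the choice. In both cases 0 of 6 member probes were called, and in the smaller set the differences were -0.0033 for SERPINA14, 0.20 for RBP4, 0.25 for LTF, -0.54 for SPP1 and 0.56 for GRP.

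RB cows were compared with non-RB cows in each compartment, to find whether these secreted proteins differed in the uterus of cows that fail to conceive. In CAR and ICAR of either horn and in the whole uterus, where the 4 arrays of each number were averaged, limma called 0% of probes and 0 of 6 member probes. At an unadjusted p under 0.05, GRP was the only member in CAR of the ipsilateral horn, where 3.41% of all probes were at that level. Both LTF probes were in ICAR of the contralateral horn, where 1.6% of all probes were. No member was in the remaining 3 comparisons. RB and non-RB arrays did not overlap for 1.97% of probes in CAR and 2.23% in ICAR of the ipsilateral horn, and for 1.37% in CAR and 1.48% in ICAR of the contralateral horn. Among the members only the 2 LTF probes in ICAR of the contralateral horn were without overlap.

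**Figure D2:**
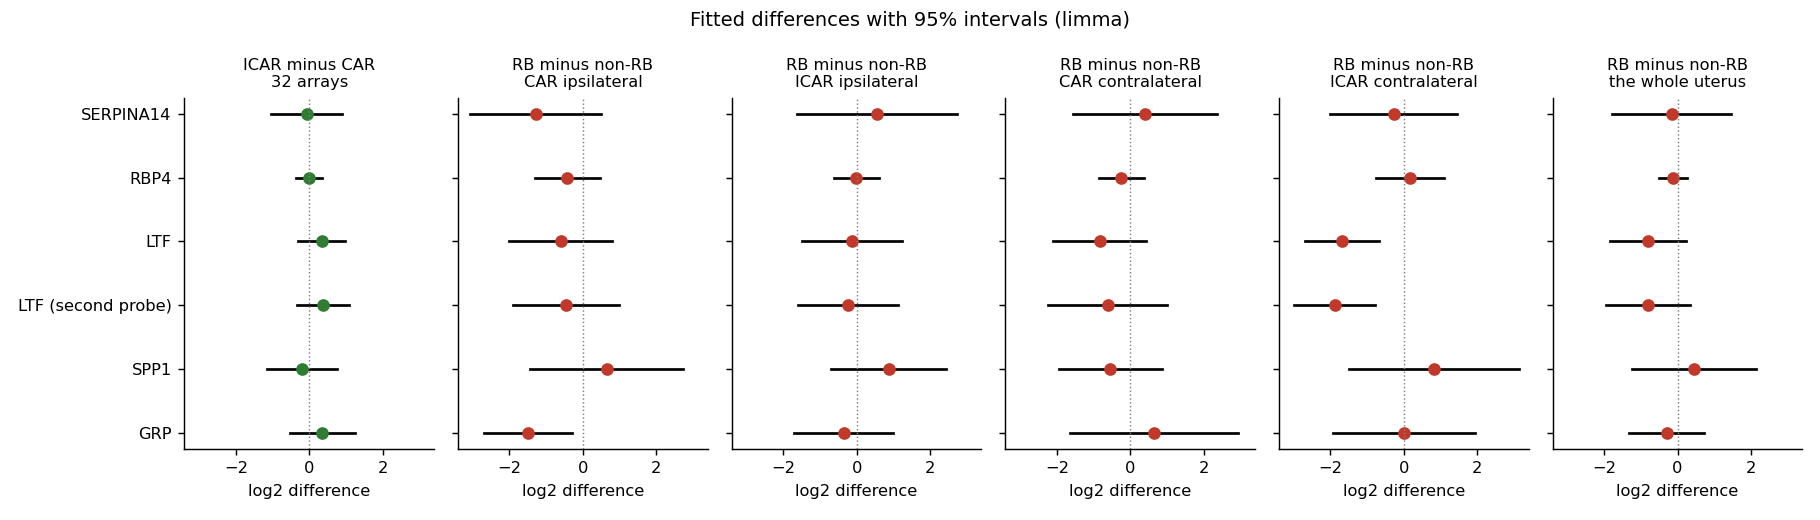
Fitted log2 differences (x axis) of the 6 tested member probes (y axis) with 95% intervals from limma, ICAR minus CAR over 32 arrays in the leftmost panel and RB minus non-RB in the others. Only the intervals of both LTF probes in ICAR of the contralateral horn and of GRP in CAR of the ipsilateral horn leave out 0, before adjustment for the number of probes.

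SERPINA14, the uterine milk serpin, spanned 43.2-fold over the 32 arrays, from -4.16 over a median of -1.52 to 1.27. RB replicates 1 to 4 in CAR of the ipsilateral horn had levels of -0.71, -2.61, -1.40 and -3.47, and non-RB replicates 1.27, -0.54, -1.28 and -2.51. In ICAR of the same horn they were -0.14, -2.23, -0.18 and -2.996 in RB and 0.39, -4.16, -1.63 and -2.36 in non-RB cows. RB replicate 4 was the lowest RB array in both regions, non-RB replicate 1 was the highest non-RB array, and the groups overlapped. The levels in CAR of the contralateral horn were -1.06, -1.11, -0.29 and -2.998 in RB and 0.82, -2.72, -2.74 and -2.38 in non-RB cows. In its ICAR they were -0.13, -1.40, -1.71 and -3.08 in RB and -0.31, 0.01, -2.56 and -2.34 in non-RB cows. RB replicate 4 was the lowest RB array in both regions of this horn as well, whereas non-RB replicate 4 was not the lowest of its group in either. The RB minus non-RB differences were -1.28 (SE 0.80) and 0.56 in CAR and ICAR of the ipsilateral horn and 0.39 and -0.28 in those of the contralateral horn, of which the sign in CAR of the contralateral horn turned with the slide or the scan session as a block and that in its ICAR without slide 1. The difference of -1.28 in CAR of the ipsilateral horn ranged from -1.87 to -0.61 when leaving out each replicate, with the smallest size without non-RB replicate 1.

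Within the ipsilateral horn the serpin was higher in ICAR than in CAR in each of the 4 RB numbers, by 0.57, 0.39, 1.22 and 0.48. In non-RB numbers the same difference was -0.88, -3.62, -0.36 and 0.16. These values did not overlap between the groups, which held for 1.7% of all probes, and the value of -3.62 came from non-RB replicate 2, whose markers did not separate the regions. The arrays of RB replicate 1 and of non-RB replicates 2 and 3 in this horn lay on different slides, so that their differences include the slide. For the same pairs the epithelial markers had medians of 1.19, 0.30, 0.70 and 0.91 in RB and 0.35, -0.34, 0.51 and 0.42 in non-RB numbers. Their part in the serpin difference was not tested. In the contralateral horn the differences of the serpin were 0.92, -0.29, -1.42 and -0.08 in RB and -1.12, 2.73, 0.18 and 0.04 in non-RB numbers, with overlap. Over both horns the contrast between groups was 0.58 (SE 0.30), with an adjusted p of 0.9995 in limma, where 0% of probes were called, and 0.143 in an exact permutation test of 4 against 4 numbers, whose smallest possible p is 0.0286. Without the contralateral pair of RB replicate 3 it was 0.91 (SE 0.33, adjusted p = 0.855 in limma, exact permutation p = 0.0571). With non-RB replicate 2 left out as well it was 0.88 (SE 0.36, adjusted p = 0.766 in limma, exact permutation p = 0.114).

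**Figure D3:**
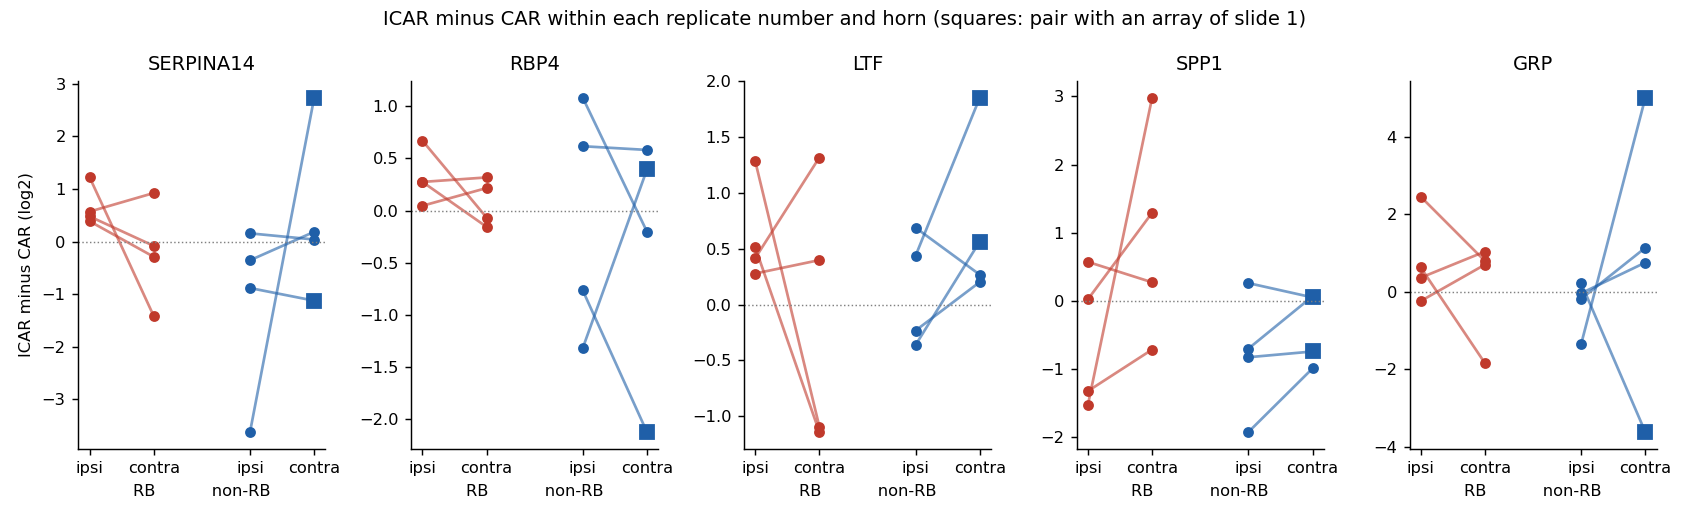
ICAR minus CAR (y axis, log2) of 5 genes within each replicate number, in the ipsilateral and contralateral horn of RB (red) and non-RB (blue) numbers; lines join the horns of a number and squares mark pairs with an array of slide 1. SERPINA14 lies above 0 in all 4 RB pairs of the ipsilateral horn and below 0 in 3 of 4 non-RB pairs, and the pairs with an array of slide 1 hold the extremes of GRP at 5.001 and -3.62.

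TKDP1, a product of the trophoblast, was well above background only in ICAR of the contralateral horn of RB replicate 1, at -7.42. The signals of the other 31 arrays reached down to -10.71 and were not well above background. TKDP1 was therefore not tested. Of 23 other trophoblast probes 4 passed the filter over 32 arrays. They were PRP2 on 32 arrays, TKDP5, a relative of TKDP1, on 22, PAG7 on 14 and TP-1, an interferon tau, on 8. The cows were in the estrous cycle, and what these signals read was not tested.

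RBP4, the retinol carrier, varied least among the members, from 2.68 over a median of 4.02 to 4.97, a range of 4.88-fold. In CAR and ICAR of the ipsilateral horn the RB levels lay between 3.26 and 4.20 and the non-RB levels between 3.26 and 4.97. In the contralateral horn RB levels lay between 3.77 and 4.54, and non-RB levels between 2.68 and 4.81. The level of 2.68 was the array of slide 1 for ICAR. RB arrays overlapped with non-RB arrays throughout, and the RB minus non-RB differences were -0.42 and -0.01 in CAR and ICAR of the ipsilateral horn and -0.25 and 0.17 in those of the contralateral horn. Without slide 1 the last of these was -0.24. Over the whole uterus the difference was -0.13 (SE 0.17, interval -0.50 to 0.24).

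Of 8 tested genes of retinol transport and retinoid metabolism, 2 were called higher in ICAR and 0 lower, against 1.35% of all probes called in either direction. LRAT, which esterifies retinol for storage, was 2.32-fold higher in ICAR (log2 1.22, SE 0.31, adjusted p = 0.0426). ALDH1A1, which oxidizes retinal to retinoic acid, was 1.91-fold higher (log2 0.93, SE 0.22, adjusted p = 0.0369). RDH10, a retinol dehydrogenase, had a difference of 0.01. The list as a whole had a median of -0.07, beside -0.02 over all probes. LRAT was higher in ICAR in 14 of 16 pairs of number and horn and ALDH1A1 in 14 of 15, and the contralateral pair of RB replicate 3 gave -2.51 and -1.64. Without slide 1 neither passed, with adjusted p of 0.0589 and 0.0574 in limma, whereas without the contralateral pair of RB replicate 3 the differences were 1.47 and 1.11. Between ICAR and CAR the 11 epithelial markers had a median of 0.52 and the 7 stromal markers one of -0.44, and their part in these differences was not tested.

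LTF, the iron-binding protein, ranged from -0.27 over a median of 1.91 to 3.67, or 15.4-fold. In ICAR of the contralateral horn its levels were 0.34, 1.18, 1.13 and 2.15 in RB replicates 1 to 4, and 3.67, 2.51, 3.13 and 2.20 in non-RB replicates. All 4 RB arrays lay below all 4 non-RB arrays, with a gap of less than 0.1 between the nearest. This separation depends on the region label of RB replicate 3, whose markers in this horn ran against it. Its library labelled CAR had 2.27, above the ICAR level of 2.20 in non-RB replicate 4. By the other LTF probe these levels were 1.88 and 1.815. As labelled, the ICAR means were 1.20 ± 0.74 and 2.88 ± 0.65 (SD, n = 4 each), and LTF was thus 3.20-fold lower in RB cows (log2 -1.68, SE 0.44, interval -2.68 to -0.67). The limma p was 0.00440 before adjustment and 0.9998 after it, and the exact permutation p of 0.0286 is the smallest that 4 against 4 arrays can give. The other probe of the same sequence gave -1.88 (SE 0.49), with RB levels of 0.053, 0.76, 0.40 and 1.806 and non-RB levels of 3.68, 2.28, 2.77 and 1.815. The difference was -1.41 without slide 1, where non-RB replicate 1 drops out, -1.65 without RB replicate 3, -1.57 with the slide and -1.22 with the scan session as a block. Within slide 6 the RB array had 2.15 and the non-RB array 3.13, and within slide 8 they had 0.34 and 2.51. No other slide held both groups in this compartment, so that the value with the slide as a block rests on these arrays alone. LTF is among the genes the study itself listed from these samples, which is not independent evidence of its direction.

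In the other 3 compartments LTF overlapped between the groups. In ICAR of the ipsilateral horn the levels were 2.76, 1.47, 1.78 and 1.82 in RB and 2.92, 0.17, 3.10 and 2.13 in non-RB cows, with a difference of -0.12. Levels in CAR of this horn were 1.48, 1.19, 1.27 and 1.41 in RB and 3.28, -0.27, 2.41 and 2.36 in non-RB cows, with a difference of -0.61, which was -1.35 without non-RB replicate 2 and -0.17 without non-RB replicate 1. The contralateral CAR had levels of 1.43, 0.78, 2.27 and 0.84 in RB and 3.11, 0.66, 2.86 and 1.999 in non-RB cows, with a difference of -0.83. It was -1.33 without slide 1, where non-RB replicate 2 drops out, and -0.51 without non-RB replicate 1. Non-RB replicates 1, 3 and 4 were at 1.999 or above in each compartment, and non-RB replicate 2 was below 1 outside ICAR of the contralateral horn. Over the whole uterus the difference was -0.81 (SE 0.46, interval -1.85 to 0.23, exact permutation p = 0.229), and it was -1.31 without non-RB replicate 2 and -0.48 without non-RB replicate 1. The RB effect differed between horns by 0.89 (SE 0.41), with an adjusted p of 0.799 in limma, where 0% of probes were called.

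Of the epithelial markers in ICAR of the contralateral horn, 9 of 11 had a negative RB minus non-RB difference, with a median of -0.31. In this compartment 0 were called, and 0 had an unadjusted p under 0.05 in limma or RB arrays without overlap. The log2 of their mean signal ranged from 0.40 to 2.64 in RB and from 1.75 to 3.05 in non-RB arrays. The lowest was RB replicate 3, and RB replicate 1, with the lowest LTF, had the highest RB value. Their part in the LTF difference was not tested. Of the neutrophil markers, a cell type that also stores LTF, 2 passed the filter, S100A12 and CATHL5, with a median difference of -0.02 in this compartment. The iron genes beside LTF were 3 of 10 listed. TF, FTH1 and FTL, which transport or store iron, had differences between ICAR and CAR of 0.05, -0.04 and 0.12, and 0 were called.

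SPP1, which encodes osteopontin, spanned 51.3-fold, from -6.94 over a median of -4.69 to -1.26. In CAR of the ipsilateral horn RB replicates had levels of -4.86, -3.80, -1.77 and -4.59 and non-RB replicates -3.91, -5.68, -1.93 and -6.08. In its ICAR they had -4.30, -3.78, -3.30 and -5.92, and -4.75, -5.43, -3.86 and -6.79. Replicate 3 was high and replicate 4 mostly low in both groups, and the groups overlapped. The levels in CAR of the contralateral horn were -4.89, -4.78, -4.25 and -6.22 in RB and -4.01, -5.01, -3.10 and -5.85 in non-RB cows. In its ICAR they were -4.63, -3.49, -1.26 and -6.94, and -4.76, -4.97, -4.10 and -5.79. RB replicate 3 and RB replicate 4 held the highest and the lowest level of all arrays in this last compartment. RB minus non-RB differences were 0.64 and 0.88 in CAR and ICAR of the ipsilateral horn and -0.54 and 0.82 in those of the contralateral horn, each smaller than its SE multiplied by 1.5. Without RB replicate 3 the last was -0.12.

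Of 10 listed integrins and receptors of osteopontin 7 were tested between ICAR and CAR, with 0 called and a median of -0.08. ITGAV, ITGB1 and CD44 had differences of -0.18, -0.16 and 0.05. ITGB5, an integrin subunit that pairs with ITGAV, was lower in all 4 RB than in all 4 non-RB arrays in CAR of the ipsilateral horn (log2 -1.03, SE 0.34, adjusted p = 0.9997 in limma), in which 1.97% of probes had no overlap. It had no such separation in the other compartments.

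GRP ranged from -8.00 over a median of -3.61 to -1.97, and the lowest value, in CAR of the contralateral horn of non-RB replicate 2, was not well above background and lay on slide 1. GRP levels in CAR of the ipsilateral horn were -5.29, -3.62, -5.52 and -3.37 in RB replicates 1 to 4 and -2.19, -3.17, -2.76 and -3.71 in non-RB replicates. RB replicates 1 and 3 lay below all non-RB arrays, while RB replicates 2 and 4 lay within their range. The means were -4.45 ± 1.11 and -2.96 ± 0.65 (SD, n = 4 each), and GRP was 2.82-fold lower in RB cows (log2 -1.49, SE 0.54, interval -2.69 to -0.30). The limma p was 0.0194 before and 0.9997 after adjustment, and the exact permutation p was 0.0857. The methods' t-test on the same values gave a p of 0.0592, beside the exact permutation test. Without RB replicate 3 the difference was -1.14, and with the scan session as a block -1.40. No slide held both groups in this compartment, so that the slide cannot be told apart from the fertility group. In the session that held RB replicates 1 to 3 and non-RB replicates 1 and 2, the RB levels were again -5.29, -3.62 and -5.52 and the non-RB levels -2.19 and -3.17. In the session of both replicates 4 the RB array, at -3.37, was above the non-RB array, at -3.71. GRP too is in the study's own lists from these samples.

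In the same compartment the log2 of the mean signal of the epithelial markers, which the brightest probes dominate, was 0.83 to 1.49 in RB and 1.79 to 2.20 in non-RB arrays, without overlap. Taken singly, 0 of 11 markers were without overlap and 0 were called, with a median difference of -0.39. PRLR, the prolactin receptor, and CLDN7, a claudin, had positive differences of 1.103 and 0.18. The part of these markers in the differences of GRP and SERPINA14 in this compartment was not tested. In ICAR of that horn GRP was at -2.84, -3.87, -4.90 and -3.01 in RB and -1.97, -4.53, -2.94 and -3.76 in non-RB cows, with a difference of -0.36. The contralateral CAR had GRP at -3.95, -3.82, -3.84 and -4.02 in RB and -2.34, -8.00, -3.55 and -4.34 in non-RB cows. In ICAR of this horn it was at -3.16, -3.12, -5.69 and -2.99, and -5.97, -2.99, -2.42 and -3.59. The 2 arrays of slide 1 were the lowest non-RB arrays of their compartments. The contralateral differences of 0.65 in CAR and 0.00 in ICAR became -0.50 and -0.74 without them. The RB effect on GRP differed between horns by -1.25 (SE 0.44, unadjusted p = 0.0177, adjusted p = 0.799 in limma), where 5.98% of all probes had an unadjusted p under 0.05, and by -0.17 without slide 1. None of the 4 listed receptors and relatives of GRP had a probe.

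**Figure D4:**
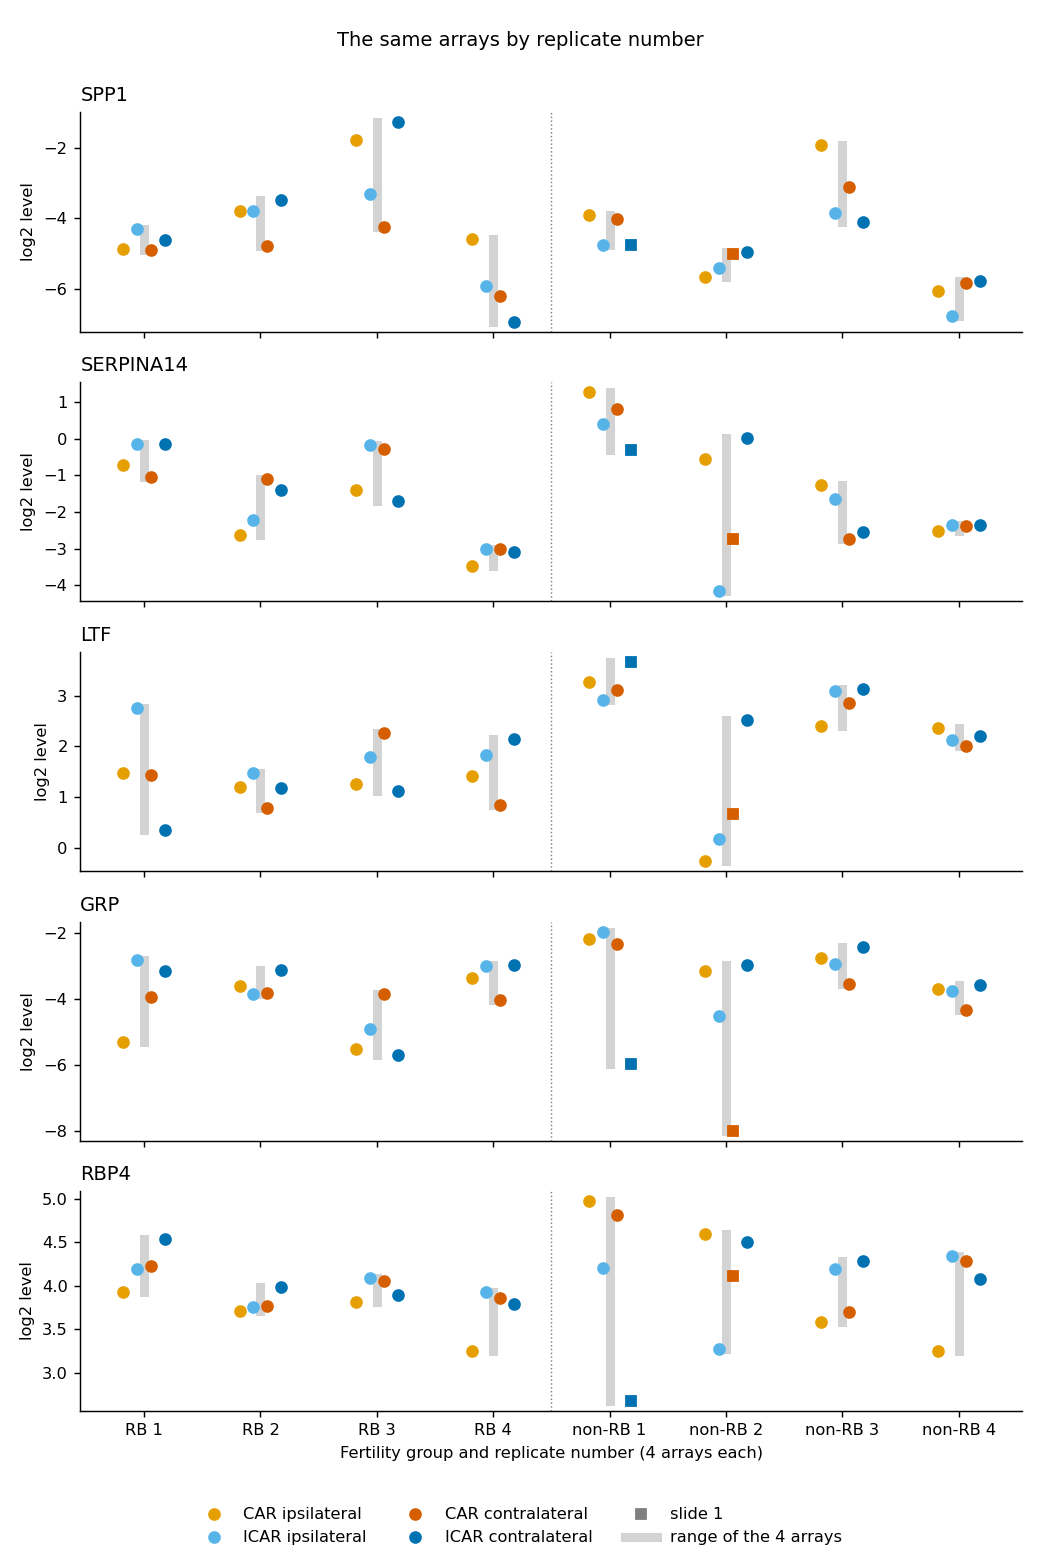
Log2 levels of 5 genes (y axis) by fertility group and replicate number (x axis), coloured by compartment, with grey bars for the range of the 4 arrays of a number and squares for slide 1. SPP1, SERPINA14 and LTF separate by number more than by compartment, as in the arrays of non-RB replicate 4, which lie within 0.17 of each other for SERPINA14.

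The spread among replicate numbers was tested with a limma F test over 8 numbers, with region and horn in the model, which was added after the levels were seen. Fertility group was not in the model, so that this spread includes any difference between RB and non-RB numbers. By this test 48.3% of all probes were called, so that a call is common. The members called were SPP1 (adjusted p = 8.90e-05), LTF (0.000734 and 0.000983 for its 2 probes) and SERPINA14 (0.000768). GRP (adjusted p = 0.226) and RBP4 (0.844) were not called. Without slide 1, 62.5% of probes were called, GRP passed as well (adjusted p = 0.00121) and RBP4 had an adjusted p of 0.0588. Replicate numbers held 74.9% of the variance of SPP1, 67.7% of that of SERPINA14 and 66.3% of that of LTF, against a median of 43.2% over all probes. They held 29.6% for GRP and 12.6% for RBP4. Region held at most 3.11% of the variance of any member, with a median over all probes of 2.54%. Fertility group held 17.3% for LTF and at most 2.87% for SPP1, SERPINA14, RBP4 and GRP, against a median of 2.74%. For each member this share is part of that between the replicate numbers.

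The means of the 4 arrays of a number show which ones stood apart. SPP1 was low in RB replicate 4 at -5.92 and non-RB replicate 4 at -6.12, and high in RB replicate 3 at -2.65 and non-RB replicate 3 at -3.25. SERPINA14 was lowest in RB replicate 4 at -3.14 and highest in non-RB replicate 1 at 0.54. LTF was lowest in non-RB replicate 2 at 0.77 and highest in non-RB replicate 1 at 3.25. Both groups therefore held high and low numbers for SPP1 and SERPINA14. The range within a number was 0.17 for SERPINA14 in non-RB replicate 4 and 0.48 in RB replicate 4, and it reached 4.17 in non-RB replicate 2. Numbers and slides coincide in part, since RB replicates 2 and 3 shared slide 2, RB replicate 4 lay on slide 6 and non-RB replicate 4 on slide 7. RB replicate 1 and non-RB replicates 1, 2 and 3 were each spread over more than 1 slide. Slide 7 held no other arrays, so that non-RB replicate 4 cannot be told apart from its slide. On slide 6, SPP1 was at -6.94 to -4.59 in RB replicate 4 and at -4.10 to -3.10 in the 3 arrays of non-RB replicate 3. Slides held 71.2% of the variance of GRP, 54.8% of that of SPP1 and 51.8% of that of SERPINA14, against a median of 48.3% over all probes. They held 37.4% for RBP4 and 12.4% for LTF. Within slide 2, 1.42% of probes were called between RB replicates 2 and 3, and 0 of 6 member probes. There RB replicate 3 minus RB replicate 2 was -1.38 for GRP (unadjusted p = 0.0184, adjusted p = 0.213 in limma) and 1.32 for SPP1 (adjusted p = 0.403).

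Other secreted proteins of the uterine glands were taken from a list of 51 genes, of which 27 were tested between ICAR and CAR with 28 probes. Only C20ORF114 was called, a gene of the BPI-fold family also known as BPIFB1, which was 4.31-fold higher in ICAR (log2 2.11, SE 0.42, adjusted p = 0.0353). The list had a median of -0.05, and 13 of 28 probes were above 0. C20ORF114 was higher in ICAR in 14 of 16 pairs, by up to 4.25, and lower in the contralateral pair of RB replicate 3 by -4.14. PLUNC, of the same family, had a difference of 0.63 (adjusted p = 0.134), and PI3, a protease inhibitor of epithelia, one of 1.03 (adjusted p = 0.192). TIMP1, an inhibitor of metalloproteinases, had -0.54 (adjusted p = 0.0902), and the 2 probes of IGF1 had -0.84 and -0.99 (adjusted p = 0.163 and 0.138). The 8 tested relatives among serpins and Kunitz inhibitors had a median of -0.09 and 0 calls, with SERPING1 at -0.41 and SERPINE2 at 0.24. Without slide 1 C20ORF114 had an adjusted p of 0.0574 in limma. The study listed this gene, as LPLUNC1, as higher in RB cows in ICAR of the ipsilateral horn, and did not compare ICAR with CAR.

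**Figure D5:**
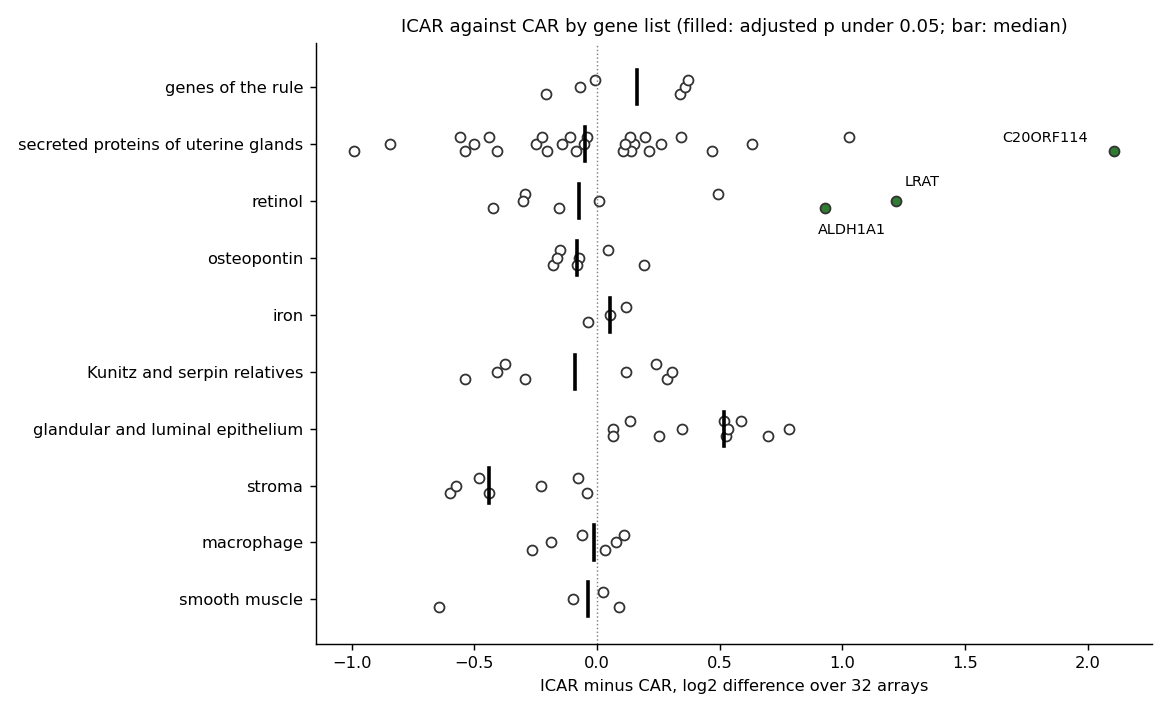
ICAR minus CAR (x axis, log2, 32 arrays) for the tested probes of the 6 member genes and of each gene list (y axis), with bars for medians and filled points for an adjusted p under 0.05. C20ORF114, LRAT and ALDH1A1 are the 3 filled points, all 11 epithelial markers lie above 0 and all 7 stromal markers below it.

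Between RB and non-RB cows 0 genes of these lists were called in any compartment. The secreted proteins had medians of -0.07 in CAR and -0.09 in ICAR of the ipsilateral horn, each with 1 probe without overlap in either direction, and of 0.01 in CAR and -0.05 in ICAR of the contralateral horn, with 2 such probes higher in CAR. Among all probes, 1.97% had no overlap in CAR of the ipsilateral horn, 1.37% in CAR and 1.48% in ICAR of the contralateral horn. C20ORF114 was higher in all 4 RB than in all 4 non-RB arrays in ICAR of the ipsilateral horn (log2 1.89, SE 0.52, adjusted p = 0.863 in limma), in which 2.23% of probes had no overlap. IGFBP3, a carrier of insulin-like growth factors, was higher in CAR of the contralateral horn (log2 1.13, SE 0.47, adjusted p = 0.9998 in limma). IGF1 was higher by 1 of its 2 probes in CAR of the ipsilateral horn (log2 0.95, SE 0.32, adjusted p = 0.9997 in limma). In the other direction, CTSL2, a cathepsin, had -0.59 in CAR and CSTB, a cathepsin inhibitor, -0.39 in ICAR of the ipsilateral horn. The other probe higher in CAR of the contralateral horn was PLUNC, at 0.59. SERPINA3, a serpin related to SERPINA14, was higher in ICAR of the contralateral horn (log2 1.67, SE 0.54, adjusted p = 0.9998 in limma), and CLDN4, a tight junction protein among the epithelial markers, was lower in ICAR of the ipsilateral horn (log2 -0.70, SE 0.24, adjusted p = 0.863). Of the epithelial list, 7 of 11 markers were above 0 there, with a median of 0.36, and PRLR and CLDN7 had 1.45 and 0.89.

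Members and other probes were also compared by the Pearson correlation of their levels over 32 arrays, which share cows, slides and tissue composition, so that r is a description without a test. RBP4 and SERPINA14 had the highest r among pairs of different members, 0.523, and 0.727 over 30 arrays without slide 1. LTF and GRP had 0.361, and SPP1 and LTF 0.0933. Among all named probes, SERPINA14 was most like RAB3B (r = 0.817), Slco4c1 (0.813) and MATK (0.812). RBP4 was most like RAB3A (0.859), DNAJB11 (0.823) and NBR-B (0.822). LTF was most like SLC2A1 (0.825), ADCY7 (0.774) and MGC140188 (0.760), and SPP1 was most like JSP.1 (0.747), KNG1 (0.717) and ATP2B1 (0.707). The 2 LTF probes had r = 0.978, and they differed by 0.38 on average with an SD of 0.23 over the arrays, which is the spread of a repeated spot.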

How the data were processed

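Endometrial RNA of RB and non-RB cows was hybridized to 32 single-colour (Cy3) bovine Agilent arrays of 15744 spots. The authors deposited each array's spots from Agilent Feature Extraction (version 9.5 in the submitters' processing notes), with processed intensity values already background-subtracted, and a table of log2 values. No genome build was used, and probes were named from the array files.

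Each array's 75th percentile was subtracted on the log2 scale from its processed intensities. Control spots were left out and outlier-flagged spots set to missing. Probes had to be well above background on at least 2 of 8, 4 of 16 or 8 of 32 arrays compared, with at least 3 values per group. limma 3.58.1 in R 4.3.3 was fitted to all probes that passed, with Benjamini-Hochberg adjustment and a threshold of 0.05. The fit was also tried on simulated data with the means and SDs of the real probes. Single members also had two-sided exact permutation tests over 35 splits of 8 numbers, or exact sign-flip tests. The number of arrays limits the precision. Arrays were grouped by their titles. A marker list was summed as the log2 of the mean signal of its probes.

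The members, gene lists and tests were chosen with earlier results of these data known. All members are named. Of the other lists, genes called between ICAR and CAR are named (at most 5 each way), with at most 3 a list whose RB and non-RB arrays did not overlap, and the 3 most correlated genes of each member seen on all arrays. Other list genes given with values were chosen after their values were seen. Alternatives were other filters, quantile normalization, normexp (offset 50), the deposited log2 table, removal of a second-degree surface, slide, scan session or replicate number as a block, a single fit of all arrays, the methods' t-test, and leaving out each replicate or slide 1. The fits without the pairs that went against their region labels, and the test among replicate numbers, were added after seeing the data.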

Additional observations from a re-analysis of the deposited data

Results flagged for a closer look

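Of 48 groups of 4 arrays of a member probe, 3 held an array whose gap to the nearest other array, divided by the range of the group, was above Dixon's critical value for 4 samples, where chance gives about 1 in 20. GRP in ICAR of the contralateral horn of RB replicate 3 was at -5.69, against -3.16 to -2.99 in the other RB arrays. That array belongs to the pair whose epithelial and stromal markers ran against its region labels. RBP4 in ICAR of the ipsilateral horn of non-RB replicate 2 was at 3.27, against 4.20 to 4.34 in the other arrays of its group. SERPINA14 in CAR of the contralateral horn of non-RB replicate 1 was at 0.82, against -2.74 to -2.38 in the others, and this number was high for SERPINA14 in both regions of the ipsilateral horn as well.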

How the results depend on the processing

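No member probe passed the threshold in any of 247 combinations of comparison and setting, and the lowest adjusted p in limma was 0.0899. Over all probes, the 174 calls between ICAR and CAR became 64 under normexp, 0 without slide 1, 0 to 908 when leaving out each replicate, 1086 with the replicate block, 1070 with the number as a random effect, 531 with the session block, 1284 without the contralateral pair of RB replicate 3, and 2075 without that pair, non-RB replicate 2 and slide 1. The replicate block changed no call of a member. Arrays of the same number correlated above 0.1 in 22 of 24 RB and 21 of 24 non-RB pairs, and RB with non-RB arrays of the same number in 11 of 16. C20ORF114 was called in 14, LRAT in 12 and ALDH1A1 in 13 of 21 alternatives. Of 40 member differences 22 kept their sign in every setting, and 62 of 760 alternative values turned it, none of them called. With the slide as a block these were, for ICAR minus CAR, RBP4 0.0032 and SERPINA14 0.19. In ICAR of the ipsilateral horn they were RBP4 0.33, SPP1 -0.47, LTF 0.66 and 0.65 and GRP 0.81. In CAR of the contralateral horn they were SERPINA14 -1.07 and GRP -1.04, and in its ICAR RBP4 -0.23, SPP1 -1.25 and GRP -0.36. With the session as a block they were RBP4 0.015 and SERPINA14 0.086 for ICAR minus CAR, RBP4 0.026 in ICAR of the ipsilateral horn, SERPINA14 -1.05 and GRP -0.73 in CAR and RBP4 -0.20, SPP1 -0.998 and GRP -0.060 in ICAR of the contralateral horn. Without slide 1 they were RBP4 0.084 for ICAR minus CAR, GRP -0.50 in CAR and RBP4 -0.24, SERPINA14 0.0501 and GRP -0.74 in ICAR of the contralateral horn. Quantile normalization gave RBP4 0.18 in ICAR of the ipsilateral horn and GRP -0.026 in ICAR of the contralateral horn, where normexp gave GRP -0.66. For ICAR minus CAR, RBP4 was 0.0301 with the surface removed and 0.20 in the smallest set of arrays, and SERPINA14 0.022 without the pair of RB replicate 3. Leaving out each replicate turned the sign within these ranges. For ICAR minus CAR they were RBP4 -0.10 to 0.19 and SERPINA14 -0.18 to 0.066, and for RB in CAR of the ipsilateral horn SPP1 -0.019 to 1.47. In ICAR of that horn they were RBP4 -0.25 to 0.10, LTF -0.76 to 0.22 and -0.85 to 0.10, SERPINA14 -0.18 to 1.33 and GRP -0.77 to 0.088. In CAR of the contralateral horn GRP ranged from -0.50 to 1.39. In its ICAR they were RBP4 -0.24 to 0.37, SPP1 -0.12 to 1.78, SERPINA14 -0.76 to 0.22 and GRP -0.74 to 0.65. In the whole uterus they were SPP1 -0.10 to 0.99, SERPINA14 -0.51 to 0.51 and GRP -0.64 to 0.051. Between RB and non-RB arrays, the values with the slide as a block rest only on slides that held both groups. The cause of a turned sign was not tested in any of these cases. TKDP1 was at background, so no change of it could be seen.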
